A study of Mus musculus with 5 samples.

Results

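Rgs9 and the 6 genes that work with it or resemble it most, Rgs6, Rgs7, Rgs11, Gnb5, Rgs7bp and Rgs9bp, were followed in 5 mouse lung tumours of small cell lung cancer, a cancer of neuroendocrine cells. The 7 genes were chosen by name, as the R7 family of regulators of G protein signalling (RGS) with its partner and its anchors, out of 54532 genes in the deposited read count table, and all 7 were found there. Rgs9 was chosen with its level in these tumours already known: by unadjusted p of the comparison below it held rank 3 among the 9531 tested genes that were higher with LSN. Its difference between the groups is therefore a description and is given no test.

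The tumours came from mice of the genotype RPP, whose letters the labels do not expand, and were frozen after necropsy. LSN tumours (n = 3) came from the arm labelled LSN, which per the series is a treatment with a drug that blocks Aurora A, a kinase of the mitotic spindle. Vehicle tumours (n = 2) had the same genotype and the vehicle alone. The sources used here give no dose, duration, age of the mice or promoter that drove tumour formation. The labels do not say whether the tumours came from separate mice, so p-values cover only the spread between these samples, which may be technical. RNA-seq gave 17870505 to 19766604 counts per LSN tumour and 17439049 and 17804648 per Vehicle tumour. A count of 3, taken as the floor, was 0.159 to 0.167 CPM (counts scaled to library size, with TMM factors), which covers counting error only. The 7 neuroendocrine markers reported (Insm1, Chga, Chgb, Syp, Ncam1, Uchl1 and Calca) were present in every tumour and summed to 2685 to 3867 CPM with LSN and 1932 to 4952 CPM with Vehicle. Markers of normal lung epithelium (6 genes, none at 0) summed to 333 to 1605 CPM with LSN against 5985 to 7975 CPM with Vehicle, and those of endothelium (4 genes, none at 0) to 55.6 to 86.8 CPM against 151 to 316 CPM, so that both sums were lower in every LSN tumour. In bulk tissue, fewer cells of a type and less RNA per cell cannot be told apart, and the part of this makeup in the results below was not tested.

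RGS proteins end G protein signals by speeding up the hydrolysis of GTP on G alpha subunits. The R7 members, RGS6, RGS7, RGS9 and RGS11, act on the Gi/o class and are found mainly in neurons and in the retina. Each binds the atypical beta subunit encoded by Gnb5, without which R7 proteins are unstable, and small anchors encoded by Rgs7bp and Rgs9bp hold the complexes at membranes. RGS9 occurs as a retinal splice form, which ends the light response of photoreceptors together with the anchor of Rgs9bp, and as a longer striatal form, which acts below dopamine and opioid receptors. Counts per gene do not tell these forms apart.

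The promoters of Rgs9 and Rgs7, the 2 members whose LSN and Vehicle values did not overlap, are shown by the 250 bases before their start sites, taken from RefSeq on GRCm38.p6, the build that mm10 names, and written 5′ to 3′ in the direction of the gene. Of the 7 members, 5 had a promoter in this table. Rgs9 lies on the minus strand of chromosome 11, from 109225355 to 109298129, with up to 19 exons in a coding transcript of GENCODE M21, and its promoter stretch is chr11:109298182-109298431. Rgs7 lies on the minus strand of chromosome 1, from 175059087 to 175492500, with up to 18 exons, and its stretch is chr1:175492546-175492795. Capitals mark the E-boxes CAGCTG and CAGATG, forms of the site of basic helix-loop-helix factors, each searched on both strands, and the matches do not overlap.
Rgs9: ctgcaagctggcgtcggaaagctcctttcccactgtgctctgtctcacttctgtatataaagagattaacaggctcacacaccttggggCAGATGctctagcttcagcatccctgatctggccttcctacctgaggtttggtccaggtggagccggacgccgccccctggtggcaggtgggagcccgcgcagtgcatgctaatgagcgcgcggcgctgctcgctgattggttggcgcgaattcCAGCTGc
Rgs7: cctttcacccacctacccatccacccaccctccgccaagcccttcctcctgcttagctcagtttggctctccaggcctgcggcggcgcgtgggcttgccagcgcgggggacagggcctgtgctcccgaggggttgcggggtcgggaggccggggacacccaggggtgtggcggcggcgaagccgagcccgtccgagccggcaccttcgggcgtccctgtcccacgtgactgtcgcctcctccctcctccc
The Rgs9 stretch held 1 CAGCTG and 1 CAGATG and had 59.6% G and C, with 14 CG pairs. The Rgs7 stretch held neither of these 2 forms and had 72.4% G and C, with 22 CG pairs. Other E-box forms were not searched and are not marked, among them CACGTG in the Rgs7 stretch and CAGGTG in the Rgs9 stretch. Of 32851 RefSeq promoters of the same length, 13.0% held CAGCTG and 14.4% CAGATG, and the median was 52.4% G and C. Of the other members with a promoter in the table, Gnb5 held 1 CAGATG, Rgs7bp 2 and Rgs6 0, and none of these 3 held CAGCTG. The Rgs6 stretch, chr12:82617249-82617498, lies inside the deposited gene, which begins at 82588292 on the plus strand. A match says only that these letters are in the window.

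Rgs9 transcripts were more abundant in every LSN tumour. Rgs9 had 2889, 2910 and 3339 counts in LSN replicates 1, 2 and 3, against 1228 and 745 counts in Vehicle replicates 1 and 2. Scaled to library size, these were 160, 156 and 177 CPM with LSN, against 66.0 and 41.6 CPM with Vehicle. The LSN tumours lay close together, their highest value being 1.13 times their lowest, and the Vehicle tumours differed by 1.59 times. The lowest LSN tumour was 2.36 times the higher Vehicle tumour. Group means were 164 ± 11.1 CPM with LSN (SD, n = 3) and 53.8 ± 17.3 CPM with Vehicle (SD, n = 2), a ratio of 3.05, and the log2 fold change was 1.61 ± 0.28 (SE, edgeR). Of all 17906 tested genes, 1.55% had a larger one. Leaving out 1 tumour at a time moved it between 1.31, without Vehicle replicate 2, and 1.99, without Vehicle replicate 1.

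**Figure D1:**
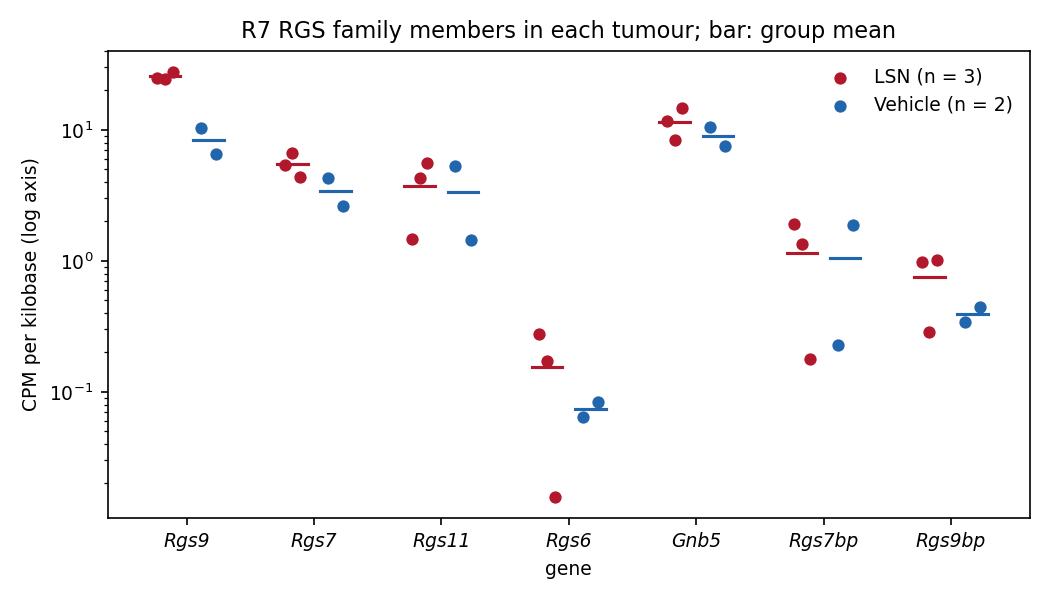
Each point is 1 tumour and each bar a group mean, in CPM per kilobase of gene length on a log axis, for LSN tumours (left, n = 3) and Vehicle tumours (right, n = 2) of each gene. Rgs9 sits at 24.4 to 27.7 with LSN, above 6.51 and 10.3 with Vehicle, whereas Rgs11 and Rgs7bp spread widely within both groups.

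Rgs7, a brain R7 member that can pair with either membrane anchors or orphan receptors, was the other member whose groups did not overlap. It had 32.6, 40.4 and 26.3 CPM in LSN replicates 1, 2 and 3, against 25.6 and 15.8 CPM in Vehicle replicates 1 and 2. The margin was narrow, since LSN replicate 3 exceeded Vehicle replicate 1 by less than the LSN tumours differed among themselves. The log2 fold change was 0.68 ± 0.37 (SE) (unadjusted p 0.118; adjusted p = 0.9996, edgeR's quasi-likelihood test with Benjamini-Hochberg adjustment), and it was 0.37 without Vehicle replicate 2 and 1.08 without Vehicle replicate 1.

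Rgs11, an R7 member found in retinal bipolar cells in the mouse, varied between tumours of the same group as much as between groups. It had 6.18, 17.9 and 23.3 CPM with LSN, against 22.4 and 6.08 CPM with Vehicle. LSN replicate 1 and Vehicle replicate 2 were the low tumours and the other 3 were high. Its log2 fold change of 0.15 ± 0.80 (SE; edgeR, adjusted p = 0.9996) became -0.25 without LSN replicate 3 and -0.50 without Vehicle replicate 2, and 1.38 without Vehicle replicate 1. Rgs11 overlaps Arhgdig on the opposite strand by 4836 bases, and libraries were made without strand information, so that reads of the overlap cannot be told apart. Arhgdig had 11.2, 11.6 and 10.5 CPM with LSN, against 22.5 and 12.7 CPM with Vehicle, a different order of tumours from that of Rgs11.

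Rgs6, the R7 member known from the heart, where it restrains parasympathetic slowing, was the least abundant. It had 50, 32 and 3 counts in LSN replicates 1, 2 and 3, against 12 and 15 counts in the Vehicle replicates. LSN replicate 3 was thus at the floor and the other LSN tumours were the highest of the 5. Its log2 fold change was 1.05 ± 1.17 (SE; edgeR, adjusted p = 0.9996), and it was 0.33 without LSN replicate 1, 1.59 without LSN replicate 3 and 0.33 with limma-voom.

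Gnb5, which encodes the obligate partner of all R7 proteins, was the steadiest member. It had 36.3, 26.1 and 45.5 CPM with LSN, against 32.5 and 23.3 CPM with Vehicle. The groups overlapped, and the highest of the 5 tumours was 1.95 times the lowest. Group means were 36.0 ± 9.72 CPM with LSN (SD, n = 3) and 27.9 ± 6.51 CPM with Vehicle (SD, n = 2), with a log2 fold change of 0.37 ± 0.35 (SE; edgeR, adjusted p = 0.9996), and leaving out 1 tumour moved it between 0.15, without Vehicle replicate 2, and 0.63, without Vehicle replicate 1.

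The anchor genes were low and followed different tumours. Rgs9bp, whose product anchors the retinal form of RGS9, had 6.41, 1.88 and 6.72 CPM with LSN, against 2.26 and 2.90 CPM with Vehicle. LSN replicates 1 and 3 were high, and LSN replicate 2, where Rgs9 was as high as in the others, was the lowest of all 5 for Rgs9bp. Rgs7bp, whose product anchors RGS7 and the striatal form of RGS9, had 13.6, 9.54 and 1.27 CPM with LSN, against 1.61 and 13.2 CPM with Vehicle. LSN replicate 3 and Vehicle replicate 1 were low and the other 3 tumours high, with a 10.7-fold range. The log2 fold changes were 0.95 ± 0.75 (SE) for Rgs9bp and 0.13 ± 1.23 (SE) for Rgs7bp, each with adjusted p = 0.9996 (edgeR). That of Rgs7bp was -0.47 without LSN replicate 1, -0.69 without Vehicle replicate 1 and 2.33 without Vehicle replicate 2.

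**Figure D2:**
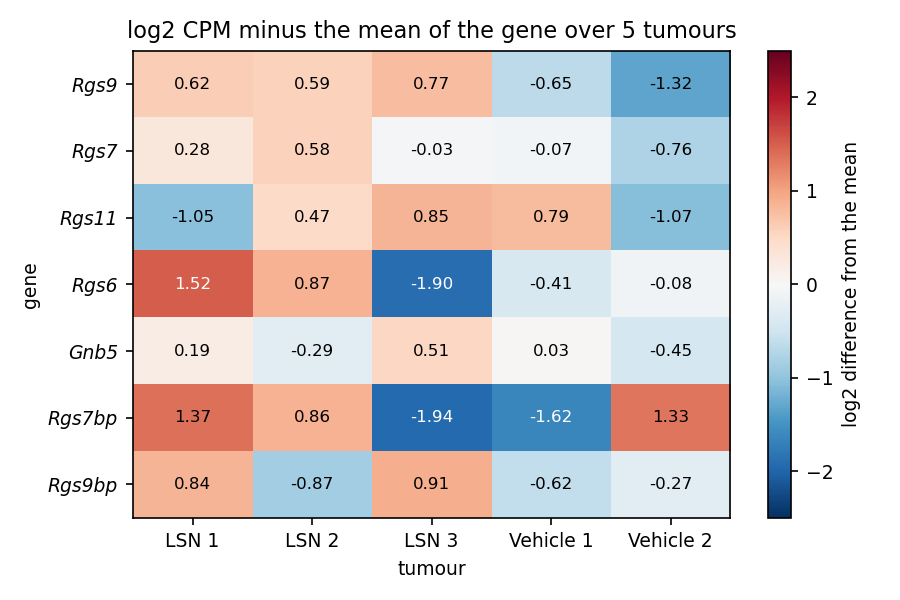
Each cell gives the log2 CPM of a gene (row) in a tumour (column) minus the mean of that gene over the 5 tumours, with red above and blue below that mean. Rgs9 alone is above its mean by at least 0.59 in all 3 LSN tumours and below it by 0.65 and 1.32 (shown as negative) in the Vehicle tumours. Every other member changes sign among the LSN tumours, Rgs7 only slightly, at -0.03 in LSN replicate 3.

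Over all genes, 0 of 17906 passed an adjusted p of 0.05 by edgeR (0%), with 764 (4.27%) at an unadjusted p under 0.05, and DESeq2, the tool that the labels name, called 95 of 19605 (0.485%). Among the 6 members other than Rgs9, all tested, edgeR, limma-voom and DESeq2 each called 0, and 0 had an unadjusted p under 0.05 in edgeR, where the values ran between 0.118 and 0.919. All 6 had a log2 fold change above 0, against 53.2% of all tested genes, but the signs of Rgs11 and Rgs7bp turned when single tumours were left out, as given above. The groups were separated, with LSN higher, for 1 of these 6 genes and for 8.48% of all tested genes. The smallest p that an exact permutation test allows with 3 and 2 tumours is 0.1.

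Compared per kilobase of gene length, Rgs9 was the most abundant member on average, at 18.8 CPM per kilobase over the 5 tumours, above 78.9% of the tested protein-coding genes. Gnb5 followed at 10.5, Rgs7 at 4.68, Rgs11 at 3.61, Rgs7bp at 1.11, Rgs9bp at 0.612 and Rgs6 at 0.122 CPM per kilobase. Gnb5 exceeded Rgs7 in 5 of 5 tumours, and Rgs9bp exceeded Rgs6 in 5 of 5. The other neighbours in this order changed places: Rgs9 exceeded Gnb5 in the 3 LSN tumours and lay below it in both Vehicle tumours, Rgs7 exceeded Rgs11 in 3 of 5, Rgs11 exceeded Rgs7bp in 3 of 5 and Rgs7bp exceeded Rgs9bp in 3 of 5. Among the RGS genes of the family, Rgs6, Rgs7, Rgs9 and Rgs11, Rgs9 was the most abundant in every tumour. Rgs9bp, the anchor gene of its retinal form, was among the lowest members.

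Rgs9 made up most of the R7 transcripts in every tumour. Its share of the 4 R7 genes, per kilobase, was 77.7%, 68.7% and 73.6% in LSN replicates 1, 2 and 3, against 51.7% and 61.0% in Vehicle replicates 1 and 2. The share of Rgs7 was 11.6% to 18.9% with LSN, against 21.3% and 24.6% with Vehicle. The 4 genes summed to 32.1, 35.5 and 37.6 CPM per kilobase with LSN, against 19.97 and 10.7 with Vehicle. Set against Gnb5, the sum was 2.75, 4.24 and 2.57 times the Gnb5 level with LSN, against 1.91 and 1.42 times with Vehicle. These ratios carry the difference in Rgs9 for which the gene was chosen and are given without a test.

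**Figure D3:**
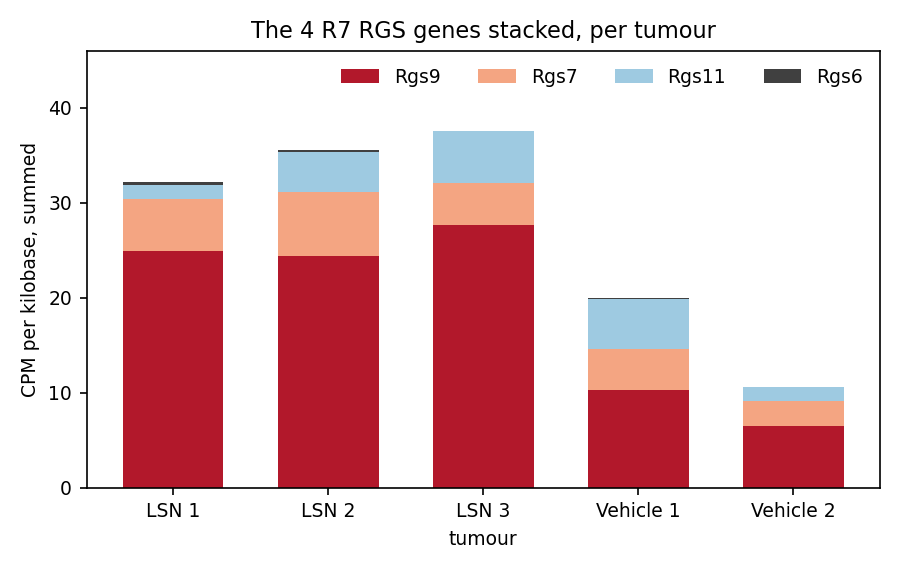
Bars stack the levels of Rgs9, Rgs7, Rgs11 and Rgs6 in CPM per kilobase for each of the 3 LSN and 2 Vehicle tumours. The Rgs9 segment is 24.4 to 27.7 with LSN, against 10.3 and 6.51 with Vehicle, and the Rgs6 segment is barely visible.

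The genes around Rgs9 on chromosome 11 were examined because the choice of members did not use position. Within 1 Mb of its midpoint lay 37 other genes, of which 13 passed the filter on low counts. Gna13, the nearest protein-coding gene tested, which encodes a G alpha subunit of the G12/13 class, lay 120 kb away and had 163, 228 and 212 CPM with LSN, against 105 and 113 CPM with Vehicle. Prkar1a, a regulatory subunit of protein kinase A, lay 398 kb away and had 997, 1044 and 753 CPM with LSN, against 541 and 548 CPM with Vehicle. Amz2, a metallopeptidase gene 178 kb away, had 125, 99.9 and 138 CPM with LSN, against 75.2 and 92.0 CPM with Vehicle. The groups were separated with LSN higher for these 3 of the 13 genes (23.1%, against 8.48% of all tested genes) and with LSN lower for 0. Their log2 fold changes were 0.88 ± 0.24 (SE), 0.78 ± 0.25 (SE) and 0.53 ± 0.25 (SE), with unadjusted p-values of 0.0118, 0.0218 and 0.0795 (edgeR, adjusted p = 0.9996 for each).

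The other 10 tested neighbours overlapped between groups. Axin2, a feedback inhibitor of Wnt signalling, had a log2 fold change of 0.50 ± 0.47 (SE). The centriolar gene Cep112 was at 0.51, the monocarboxylate transporter Slc16a6 at 0.53, the antisense transcript Gm11696 at 0.85 and the autophagy gene Wipi1 at 0.01. Gm11696 overlaps the start of Gna13, and reads of that overlap cannot be told apart without strand information. Arsg, a lysosomal sulfatase, was at -0.18 and Fam20a, a secreted pseudokinase, at -0.33. The lipid transporter genes Abca8b, Abca8a and Abca9 were at -0.99, -0.14 and 0.02. The median of the 13 genes was 0.50, against 0.34 over the other 1408 tested genes of chromosome 11 and 0.02 over 16484 genes of other chromosomes. Over the same 13 genes it was 0.20, 0.21 and 0.09 without LSN replicates 1, 2 and 3, 0.40 without Vehicle replicate 1 and 0.17 without Vehicle replicate 2. On chromosome 11 as a whole, the groups were separated with LSN higher for 25.8% of 1421 tested genes other than Rgs9, against 6.98% on other chromosomes. Of those 1421 genes, 33 (2.32%) had a larger log2 fold change than Rgs9. Measured against the mean of the Vehicle tumours, the median of the rest of chromosome 11 was 0.37, 0.12 and 0.42 higher (log2) in LSN replicates 1, 2 and 3, while Rgs9 was 1.60, 1.57 and 1.75 higher. Rgs9 was chosen with its level known, so its high place among these genes is a description and is given no test.

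**Figure D4:**
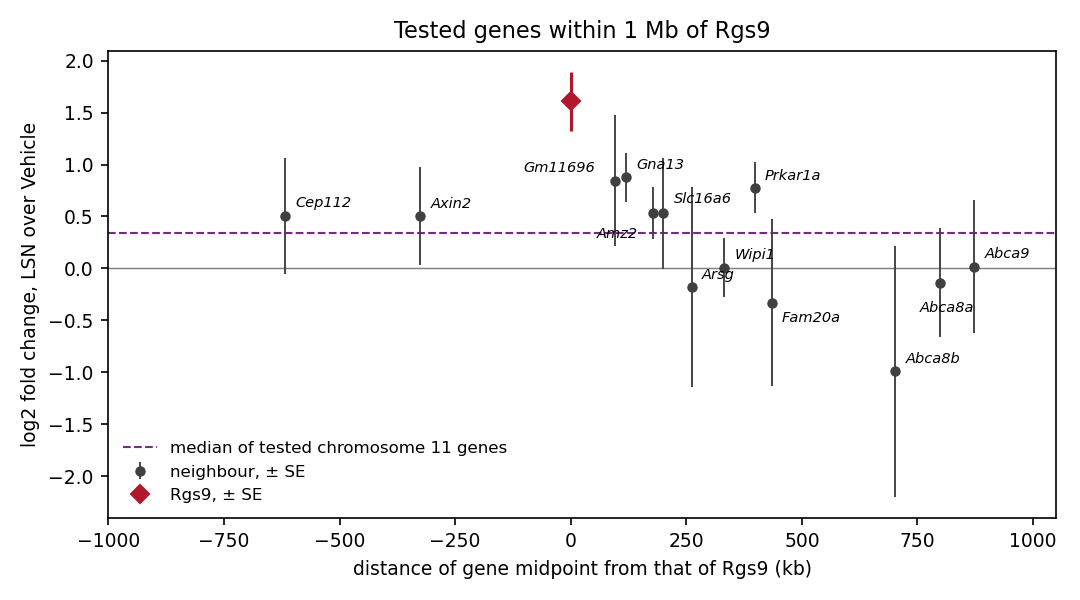
Points give the log2 fold change, LSN over Vehicle, with its SE from edgeR, of each tested gene within 1 Mb of Rgs9 against the distance between gene midpoints in kb, and the dashed line is the median of the tested chromosome 11 genes, 0.34. Rgs9 (diamond, 1.61) lies above all 13 neighbours, of which Gna13 is at 0.88 and Abca8b at -0.99. Rgs9 was chosen with its level known, so its place above them is a description.

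The genes whose profile over the 5 tumours was most like that of Rgs9 were sought among 14545 protein-coding genes with a mean of at least 1 CPM, by the root mean square distance between log2 CPM values centred on each gene's mean. The 5 nearest were Hoxb4, a homeobox gene, at 0.233, Tnr, the matrix protein tenascin R, at 0.239, Fam19a4, a secreted peptide gene, at 0.254, Farp2, a guanine nucleotide exchange factor, at 0.275, and Tex2, a membrane contact gene, at 0.279. Hoxb4 and Tex2 also lie on chromosome 11, which held 1421 of the 17906 tested genes, not counting Rgs9. As given above, the groups were separated with LSN higher for 25.8% of those genes, against 6.98% on other chromosomes. Hoxb4 had 132, 96.3 and 101 CPM with LSN, against 56.5 and 26.6 CPM with Vehicle. Tnr had 34.7, 27.8 and 36.7 CPM with LSN, against 19.2 and 10.3 CPM with Vehicle. Both have all LSN tumours above the Vehicle tumours and Vehicle replicate 2 lowest, as Rgs9 has. The search ranked genes by likeness to Rgs9, so this shared pattern was set by the search and is no separate result. The median distance over all compared genes was 0.916. Within the family, Rgs7 was nearest to Rgs9 at 0.529, with 1.25% of the compared genes closer, Gnb5 was at 0.668 and Rgs9bp at 0.812. Rgs11, Rgs6 and Rgs7bp, at 0.994, 1.39 and 1.79, were farther than the median gene. The distance was not scaled, so it also grows with a gene's own spread. The SD of log2 CPM was 1.31 for Rgs6 and 1.64 for Rgs7bp, against 0.93 for Rgs9. With 5 tumours, 2 of them Vehicle, many genes share such a profile.

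Of 14 receptors and further anchors that R7 complexes are known to work with, 9 were tested, with 4 log2 fold changes above 0, 5 below and 0 with separated groups. Gpr158, an orphan receptor that binds RGS7, had 42.6, 9.27 and 0.159 CPM with LSN, against 8.87 and 0.949 CPM with Vehicle. Gpr179, the related receptor of retinal bipolar cells, had 162, 2.57 and 4.13 CPM with LSN, against 13.6 and 103 CPM with Vehicle. Both therefore varied far more between tumours than Rgs9 did, and both were singled out with their values known. Drd2, the dopamine receptor on which the striatal form of RGS9 acts, had 48.5, 15.5 and 27.2 CPM with LSN, against 43.4 and 49.9 CPM with Vehicle. Chrm2, a muscarinic receptor coupled to Gi/o, had 49.7, 24.2 and 36.0 CPM with LSN, against 25.5 and 19.4 CPM with Vehicle, with groups that overlapped in 1 pair of tumours. Of the opioid receptor genes, Oprd1 had 9.50, 92.2 and 165.5 CPM with LSN, against 54.7 and 30.4 CPM with Vehicle, with overlapping groups (log2 fold change 1.07 ± 1.09 SE), and Oprm1 was listed at 0 counts in all 5 tumours.

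Marker genes of photoreceptors, the cells in which the retinal form of RGS9 is known, were low. The 5 markers reported (Pde6a, Pde6b, Gnat1, Sag and Rcvrn, none at 0 in all tumours) summed to 37.8, 6.70 and 12.4 CPM in LSN replicates 1, 2 and 3, against 5.16 and 4.58 CPM in Vehicle replicates 1 and 2. This sum was higher in every LSN tumour than in both Vehicle tumours. Gnat1, described below, made up most of the sum in each tumour and alone among the 5 had separated groups. The 11 phototransduction genes listed, which do not include Gnat1, summed to 30.8, 2.84 and 2.44 CPM with LSN, against 3.87 and 2.96 CPM with Vehicle, so that LSN replicates 2 and 3 lay below both Vehicle tumours. Of these, 4 were tested, with 3 log2 fold changes above 0 and 0 with separated groups. Cngb1, a subunit of the rod cation channel, was at 1.97 and overlapped. Sag, the arrestin of the visual pigment, had 7.84, 0.322 and 0.529 CPM with LSN, against 0.376 and 0.782 CPM with Vehicle. LSN replicate 1 was thus highest for both sums and for Sag. Rgs9 lay close together in the LSN tumours, with LSN replicate 1 between the others. The part of such cells in the Rgs9 level was not tested. Genes of striatal neurons summed to 63.3 to 132 CPM with LSN, against 73.7 and 96.0 CPM with Vehicle, and 4 of the 8 tested had a log2 fold change above 0. Gpr6, an orphan receptor of striatal neurons, was at 2.95, with 24.6 CPM in LSN replicate 2 and at most 1.51 CPM elsewhere, and Tac1, a tachykinin precursor, at -3.13, with 4.91 CPM in Vehicle replicate 2 and at most 0.828 CPM elsewhere. General neuron markers (Rbfox3, Snap25, Slc17a7, Gad1 and Gad2) summed to 124 to 389 CPM with LSN, against 143 and 303 CPM with Vehicle, and overlapped as well. Sums of fibroblast and immune cell markers also overlapped, and that of cardiac and smooth muscle markers was lower in every LSN tumour, at 38.9 to 83.2 CPM against 105 and 160 CPM. Of these 4 muscle markers, only Acta2 had separated groups, and Myh6, Tnnt2 and Myh11 overlapped.

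Among other RGS genes, the R4 class holds small RGS proteins with little besides the RGS domain. Of its 7 tested genes, 6 had a log2 fold change above 0 and 1 below, against 53.2% above 0 over all tested genes. The groups were separated with LSN higher for 0 of the 7. The class median of 0.89 fell to 0.26 once LSN replicate 1 was dropped. Dropping any other single tumour gave medians from 0.49 to 1.17. The 1 below was Rgs2, which favours Gq, at 37.2, 52.1 and 32.8 CPM with LSN, against 103 and 69.3 CPM with Vehicle, lower in every LSN tumour (log2 fold change -1.08 ± 0.32 SE; edgeR, unadjusted p 0.0179, adjusted p = 0.9996). Rgs8, a neuronal member, had 17.7, 29.6 and 7.78 CPM with LSN, against 10.003 and 4.58 CPM with Vehicle. In the RZ and R12 classes, 3 of 6 tested genes were above 0 and none had separated groups. Rgs17, an RZ member, had 49.4, 69.0 and 89.2 CPM with LSN, against 56.0 and 40.5 CPM with Vehicle. Its relative Rgs20 had a log2 fold change of -0.68, and the R12 members Rgs10 and Rgs14 were at -0.35 and 0.34.

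G alpha subunits of the Gi/o class, the substrates of R7 proteins, showed 5 of 7 tested genes above 0. Gnat1, the rod transducin subunit on which the retinal form of RGS9 acts, was low but higher in every LSN tumour, at 20.5, 6.32 and 11.8 CPM with LSN, against 4.68 and 3.74 CPM with Vehicle (log2 fold change 1.61 ± 0.65 SE; edgeR, unadjusted p 0.0515, adjusted p = 0.9996). Gnat2, the cone transducin subunit, was at -0.52 and overlapped. Of 8 other alpha subunits, Gna13 and Gna11, a Gq class subunit, were higher in every LSN tumour, as were 8.48% of all tested genes. Gna13 lies on chromosome 11, where that share was 25.8%. Gna11 had 172, 269 and 146 CPM with LSN, against 140 and 133 CPM with Vehicle, and Gna12 overlapped at a log2 fold change of -0.51. Of the beta subunits other than Gnb5, Gnb1 had 633, 651 and 1079 CPM with LSN, against 556 and 437 CPM with Vehicle, and Gnb2 had 412, 409 and 457 CPM with LSN, against 539.3 and 575 CPM with Vehicle. Their groups were separated in opposite directions. Gamma subunits had 3 of 10 tested genes above 0, and Gng11 was at 4.14, 4.61 and 4.29 CPM with LSN, against 8.61 and 13.1 CPM with Vehicle, while Gng10 overlapped at a log2 fold change of -1.06.

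Effectors below Gi/o also differed in direction. Kcnj6, a subunit of the G protein-gated potassium channels that R7 complexes switch off faster, had 7.79, 20.4 and 7.52 CPM with LSN, against 4.95 and 1.79 CPM with Vehicle, and 3 of the 4 channel genes were above 0, Kcnj5 at 1.55 with overlapping groups. Adcy4, an adenylyl cyclase, had 3.31, 3.81 and 3.18 CPM with LSN, against 8.39 and 16.1 CPM with Vehicle, and 7 of the 9 cyclase genes were above 0, Adcy9 at 0.84 with overlapping groups. Adcy4 and Gng11 were lower in the same tumours in which the endothelial marker sum given above was lower, and the part of endothelium in their values was not tested. Over the 91 related genes of all 12 lists, 73 were tested and 44 were above 0, with a median log2 fold change of 0.11 against 0.03 over all tested genes. The groups were separated upward for 5 of the 73, against 8.48% of all tested genes, and downward for 4, against 10.4%. By edgeR 0 passed the adjusted threshold, with 1 higher (1.06% of all tested genes) and 3 lower (3.21% of all tested genes) at an unadjusted p under 0.05, and limma-voom and DESeq2 also called 0. The median was -0.18 without LSN replicate 1 and 0.52 without Vehicle replicate 2.

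**Figure D5:**
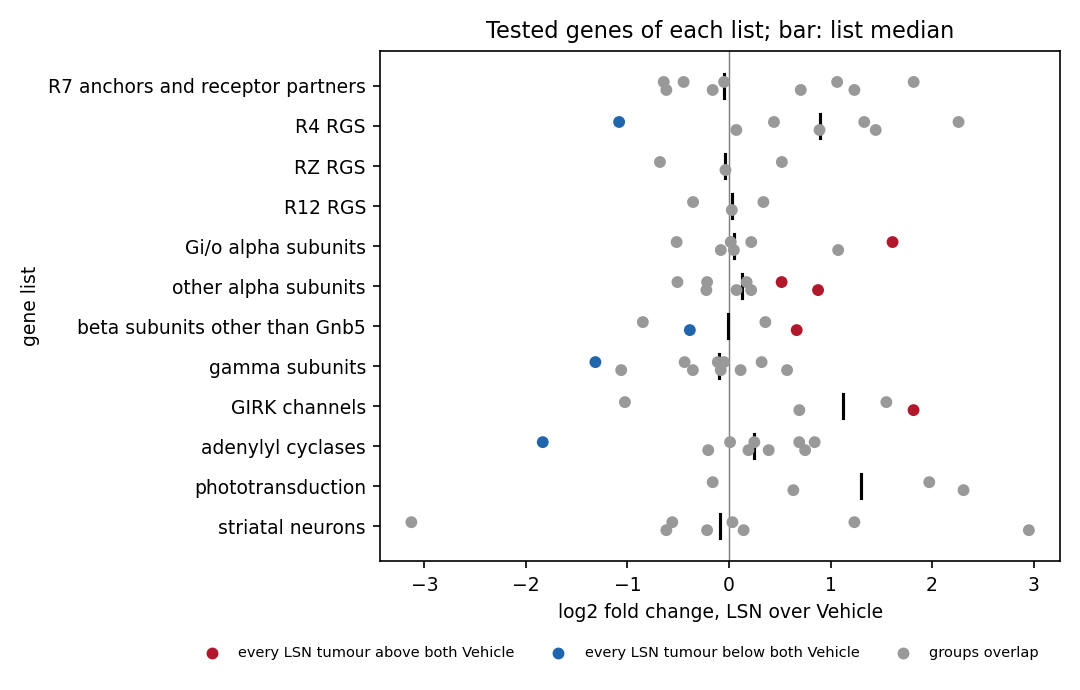
Each point is the log2 fold change, LSN over Vehicle, of 1 tested gene in 12 lists of genes related to R7 signalling, coloured by whether the 3 LSN and 2 Vehicle tumours overlapped, with a bar at each list median. Separated genes are few, 5 upward and 4 downward, and lie on both sides of 0.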

How the data were processed

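RNA-seq of 5 tumours was analysed, 3 LSN and 2 Vehicle, grouped by the treatment label. The authors deposited raw read counts per gene, mapped with STAR to mm10, per the labels' protocols, from libraries that do not keep the strand. For the counting program and the annotation, nothing is stated in the sources used here. The members and gene lists were chosen with earlier results of these data known, the lists from general knowledge. Some list genes are not reported here and stay out of list sums and counts.

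LSN was compared with Vehicle over all genes in edgeR 4.0.16 (R 4.3.3), by its quasi-likelihood test (robust, TMM, filterByExpr with a minimum count of 10 and total of 15, Benjamini-Hochberg at 0.05), with 3 residual degrees of freedom, after the steps were tested on simulated data. Log2 CPM used a prior count of 2. CPM per kilobase used the gene length that the authors deposited. From each list the text names the 2 tested genes with the smallest p and genes of at least 1 CPM with separated groups, and others where said. Alternatives were DESeq2 1.42.0, limma-voom (limma 3.58.1), other scalings and filters, and leaving out each tumour.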

Additional observations from a re-analysis of the deposited data

How the results depend on the processing

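No paired analysis was possible because the groups share no tumour numbers and the replicate numbers were given in accession order. The count of genes called over all genes was 95 with DESeq2 and 0 under every other alternative run, with 407 to 1181 at an unadjusted p under 0.05 in edgeR when 1 tumour was left out. The log2 fold change of Rgs9 was above 0 under all 13 alternatives and lay between 1.31 and 1.99 when 1 tumour was left out. Over the same settings, Rgs11 lay between -0.50 and 1.38, Rgs7bp between -0.69 and 2.33, Rgs7 between 0.37 and 1.08, Gnb5 between 0.15 and 0.63, Rgs6 between 0.33 and 1.59 and Rgs9bp between 0.69 and 1.34. The last 4 were above 0 under all 13 alternatives. The median of the neighbours of Rgs9 was 0.41 with total counts in place of TMM, and 0.088 to 0.48 over the neighbours tested each time when 1 tumour was left out. With 2 Vehicle tumours the spread in that group rests on 1 difference, and with 1 left the lone tumour is assumed to vary as the LSN tumours do. Counts at or under the floor, as for Rgs6 in LSN replicate 3, limit its fold change.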
